A study of Caenorhabditis elegans with 40 samples.

Results

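The change from the second larval stage (L2) to the third (L3) was measured in whole Caenorhabditis elegans males, with 4 libraries of L3 males set against 4 of L2 males, 8 of the 40 libraries of the series. The members were taken by their labels alone. All males carried dpy-28(y1) and him-8(e1489) and were grown at 25 °C, and over 98% of the animals were male by the labels. The him-8 mutation gives many XO males, and the temperature-sensitive dpy-28 mutation removes most XX animals because it breaks the complex that tones down their X chromosomes. Both stages carry the same alleles. The other libraries hold males of the same strain at L1, L4 and young adulthood and N2 wild-type hermaphrodites at the same 5 stages, also grown at 25 °C, so a difference from hermaphrodites may lie in the sex or in the strain, and the 2 cannot be told apart. Each library pools many worms.

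L2 and L3 are the stages in which the male body plan parts from that of the hermaphrodite. In a C. elegans male the blast cells of the tail divide to build rays, hook and spicules, the gonad grows towards the tail, and the germ line turns from proliferation to meiosis and sperm. At each molt the epidermis lays down a new cuticle of collagens, and the heterochronic genes, a timer made of microRNAs and the transcription and RNA-binding factors they act on, tell each lineage which stage it is in. Sperm of C. elegans are amoeboid and crawl with a cytoskeleton of major sperm protein (MSP), which is encoded by many near-identical genes.

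Reads came from the 3′ ends of messenger RNA and were counted as unique molecular identifiers (UMIs). L3 male libraries held 3891534 to 7041044 UMIs and L2 male libraries held 4335717 to 7273903. Levels are given as CPM, counts scaled to one common library size. Over 4 libraries together, the limit that a count of 0 allows, set at 3 counts, was 0.143 CPM in L3 males and 0.138 CPM in L2 males. The stage labels parted the libraries: the first component of the 8 libraries carried 72% of the variance, and L3 males lay at 46.6 to 50.9 on it and L2 males at −50.6 to −47.2. L2 male replicate 4 stood apart from the others on the second component, at −34.3 with 7.26% of the variance. Of the male markers checked, mab-3 and dmd-3 were present in all L3 male libraries. The third, her-1, had no count in L3 males and at most 0.60 CPM in L2 males. L3 hermaphrodites also had mab-3 and dmd-3, at means of 6.95 and 5.42 CPM, against 72.5 and 9.35 CPM in L3 males. For dmd-3 this sex difference was not called (adjusted p = 0.258, edgeR quasi-likelihood test). Yolk and eggshell markers summed to 34.8 to 41.7 CPM in L3 males and 14.8 to 32.8 CPM in L2 males. Markers of intestine, body wall muscle, pharynx, neurons and epidermis were present at both stages. Those of body wall muscle summed to 6358 to 7581 CPM in L3 males and 10157 to 12119 CPM in L2 males. The log2 fold changes of these markers were −0.74 for unc-54, −0.36 for myo-3 and −0.18 for unc-15, and none was called. Over the 39 body wall muscle genes tested the median log2 fold change was −0.06. In whole animals, fewer cells of a type and less RNA per cell cannot be told apart.

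The step from L2 to L3 in males was mostly a gain of transcripts. Of 8110 genes tested, 917 rose (11.3%) and 144 fell (1.78%), where a call needed an adjusted p of at most 0.05 in the edgeR quasi-likelihood test, a log2 fold change of at least 1 in size and a mean normalised count of at least 5 over all 40 libraries. Rises were large: 633 of the 917 genes rose at least 4-fold and 541 at least 8-fold by the fitted values, and 447 had only 0 to 3 counts in the 4 L2 libraries together. For the 256 of these with no count at all in L2 males a fold change is only a lower bound. The median log2 fold change of the 917 genes was 3.81 as fitted and 3.04 with those genes set at their bound. Falls were small. Of the 144 genes that fell, 13 fell at least 4-fold and 0 at least 8-fold, with a median log2 fold change of −1.28. Many rises were at low levels, since 495 of the 917 genes stayed under 5 CPM in L3 males. The split depended on the libraries fitted. With the 8 male libraries alone, which left 5569 genes to test, 586 rose and 237 fell, so the share of calls that were rises was 71.2% in place of 86.4%. Of the 917 genes, 579 could be tested there and 546 were called again. The median over all genes tested was 0.09 on the log2 scale.

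**Figure D1:**
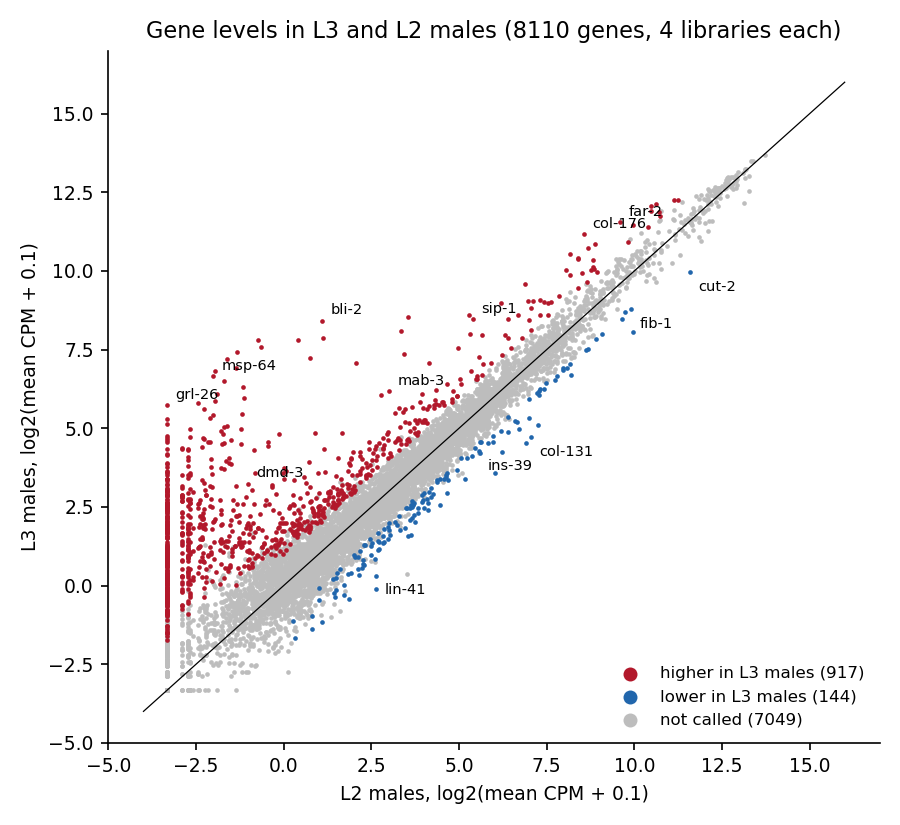
Mean level of each of 8110 genes in L3 males (y axis) and L2 males (x axis), both as log2 of mean CPM plus 0.1, with 4 libraries per stage; each point is a gene, coloured by its call, and the line marks equal levels. The column of points at the left edge holds genes with no count in L2 males, and the 144 genes that fell lie close under the line.

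The genes that rose were unevenly placed in the genome. On the X chromosome 34 of 1065 genes tested rose (3.19%), against 830 of 6765 on the autosomes (12.3%). Falls showed no such deficit, with 29 genes on X (2.72%) and 1.66% of the genes on autosomes. The median log2 fold change was −0.04 on X and 0.11 on the autosomes. Chromosome IV had the highest share of rises, with 216 of 1350 genes (16%), and chromosome III the lowest autosomal share, with 114 of 1266 (9.005%). None of the tested MSP-family genes with a known position lay on X, and the single X-linked gene among the other sperm genes was not called. Genes known only by a sequence name made up 572 of the 917 that rose, 15.5% of the 3702 tested, whereas 345 of 4408 genes with a name of their own rose (7.83%).

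**Figure D2:**
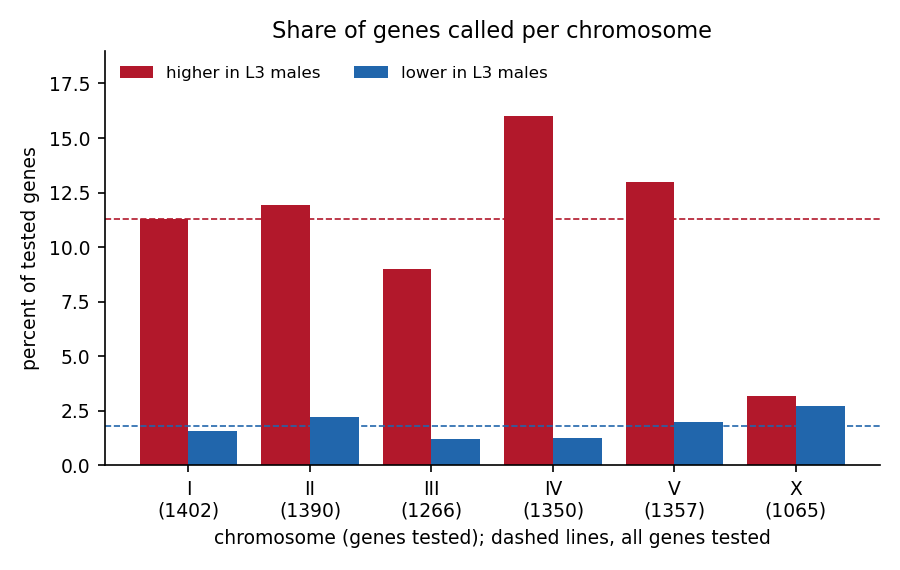
Percent of tested genes called higher (left bar) or lower (right bar) in L3 males for each chromosome, with the number tested in brackets; dashed lines mark all genes tested (11.3% and 1.78%). X has 3.19% of its genes higher, and the autosomes between 9.005% and 16%.

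Sperm genes came on between L2 and L3. Of 41 tested genes of the MSP family and its small relatives, 35 rose and 0 fell (85.4%, against 11.3% of all genes). Their summed level was 449 to 546 CPM in L3 males and 1.04 to 3.18 CPM in L2 males without overlap. In L2 males 32 of the 35 had only 0 to 3 counts in all. The median log2 fold change of the list was 7.01 as fitted and 5.05 with 23 genes at their lower bound. Of the genes that rose and had a known position, 16 lay on chromosome IV, 12 on chromosome II, 3 on I and 1 on V. The copies are nearly identical, so counts of single msp genes are uncertain. With the 8 male libraries alone 21 MSP-family genes were called, because fewer passed the filter on low counts.

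The gene msp-64 (chromosome II, 5809947 to 5810330 in WBcel235) had 88.6, 108, 110 and 93.7 CPM in L3 males, against 0, 0.46, 0.13 and 0 CPM in L2 males. Set on counts, that was 714 times the L2 level, with a 95% counting interval from 244 to 3467. The gene msp-3, on chromosome II from 4785898 to 4786281, had 29.9, 36.05, 35.4 and 37.7 CPM in L3 males and no count in L2 males. It was thus at least 248-fold higher in L3 males. These levels were still far from those of later stages: msp-64 averaged 955 CPM in L4 males and 1773 CPM in young adult males. The MSP-related ssp-16 had 22.6 to 28.8 CPM in L3 males and no count in L2 males, at least 187-fold higher.

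Sperm genes outside the MSP family moved the same way, with 25 of 35 tested members higher and 0 lower (71.4%, against 11.3% of all genes). The list summed to 686 to 739 CPM in L3 males and 201 to 257 CPM in L2 males, and its median log2 fold change was 4.76 as fitted, or 3.92 with 9 genes at their bound. The nspd genes encode small nematode-specific peptides of sperm. Of these, nspd-4 had 21.96, 24.6, 26.8 and 24.5 CPM in L3 males and no count in L2 males, at least 175.7-fold higher. The sperm-specific family member ssq-3 had 17.2, 14.6, 11.6 and 16.1 CPM in L3 males and again no count in L2 males, at least 108-fold higher. The phosphatase gsp-4, a PP1-type enzyme needed in sperm formation, had 21.5, 22.3, 26.3 and 22.2 CPM in L3 males, against 0, 0.23, 0.40 and 0.20 CPM in L2 males. Its log2 fold change was 6.53 ± 0.38 (SE, adjusted p = 3.753e-17). For each of these genes the lowest L3 library lay far above the highest L2 library.

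Several of the steepest rises were genes without a given name that shared this course. T27A3.4 had 104.4, 117.3, 111 and 118 CPM in L3 males, against 0, 0.23, 0 and 0.40 CPM in L2 males. C04G2.3 had 36.3 to 44.7 CPM in L3 males and no count in L2 males, at least 282-fold higher. T23B3.5 had 25.08 to 29.4 CPM in L3 males, again with no count in L2 males, and was at least 198-fold higher. All 3 were higher still in young adult males, at 1862, 399 and 648 CPM. K09C8.2, in the list for the male gonad tract, had 2.69 to 3.89 CPM in L3 males and no count in L2 males, at least 23.3-fold higher.

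Genes of the germ line that serve both sexes moved far less. Of 44 tested, 5 rose and 0 fell (11.4%, near the 11.3% of all genes), with a median log2 fold change of 0.37. The 5 included cpb-1, a CPEB-type RNA-binding protein needed for sperm formation, at 3.44, 3.15, 3.15 and 3.5 CPM in L3 males and 0.42, 0.46, 0.13 and 1.19 CPM in L2 males. The P granule gene pgl-3 had 21.7, 26.03, 21.7 and 23.3 CPM in L3 males, against 5.41, 3.66, 9.40 and 7.35 CPM in L2 males (log2 fold change 1.81 ± 0.34, adjusted p = 7.277e-05). The CCCH zinc finger gene mex-5 had 14.6 to 17.9 CPM in L3 males and 2.91 to 6.18 CPM in L2 males. Among 19 tested genes of meiotic chromosome axes, pairing and recombination, 3 rose and 0 fell (15.8%, against 11.3% of all genes), one of them the axis gene htp-3 with 5.83 to 7.44 CPM in L3 males and 2.50 to 3.77 CPM in L2 males (log2 fold change 1.12, and 0.96 with no filter on low counts). Of 31 genes of DNA replication 0 rose and 1 fell (3.23%, against 1.78% of all genes). That was mcm-2, a subunit of the replicative helicase, at 18.2, 15.4, 19.8 and 20.2 CPM in L3 males and 46.6, 53.0, 53.0 and 41.3 CPM in L2 males (log2 fold change −1.39 ± 0.29, adjusted p = 0.0003923).

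Eggshell, oocyte and yolk genes, which serve reproduction in hermaphrodites, also held 7 rises among 33 tested members and 0 falls (21.2%, against 11.3% of all genes). Those named here were all at low levels. The oocyte regulator oma-1 had 4.01 to 5.604 CPM in L3 males and 1.25 to 2.52 CPM in L2 males, and its call was lost with counts thinned to the smallest library (adjusted p = 0.0714). The yolk gene vit-2 had 0.29 to 0.90 CPM in L3 males and no count in L2 males, at least 4.80-fold higher, and it too was not called with thinned counts (adjusted p = 0.304). Over 98% of the animals were male, and the part that any remaining hermaphrodites have in these levels was not tested.

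The cuticle was the other large field of change. Of 137 tested col genes, 56 rose and 5 fell (40.9% and 3.65%, against 11.3% and 1.78% of all genes). The median log2 fold change over the list was 1.04. Together they took 98184, 112748, 85903 and 94679 CPM in L3 males, against 59740, 57119, 53957 and 48680 CPM in L2 males, thus up to 11.3% of the scaled counts in an L3 library. Of the 56 genes that rose, 25 were already above 100 CPM on average in L2 males and 21 were under 5 CPM. Rises were thus seen both in abundant collagens and in others that were almost absent before. Collagen genes share repeats, and reads from close copies may be hard to assign.

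Of the 8 genes with the largest gain in mean level, 7 were col genes. For col-117 the L3 males had 3867, 6560, 3546 and 3221 CPM, against 1472, 1479, 1422 and 1325 CPM in L2 males (log2 fold change 1.59 ± 0.24, adjusted p = 2.459e-06). L3 male replicate 2 was the highest for col-117 and for col-3, which had 3508 to 6575 CPM in L3 males and 1471 to 1650 CPM in L2 males. The genes col-169, col-160, col-93 and col-39 averaged 4903, 4926, 3853 and 3753 CPM in L3 males and gained between 2.03-fold and 2.71-fold. The call for col-160 sat at the threshold, with a log2 fold change of 1.024 that was 0.96 with DESeq2 size factors. On the X chromosome col-176 had 2312, 2375, 2186 and 2337 CPM in L3 males and 427, 411, 366 and 316 CPM in L2 males.

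Other collagens were almost absent in L2 males. The genes bli-1 and bli-2 encode collagens of the struts that join the layers of the adult cuticle. For bli-1 (chromosome II, 10708960 to 10712156) the L3 males had 132, 160, 137 and 166 CPM and the L2 males 0.42, 0.23, 0.27 and 0 CPM. The log2 fold change was 9.20 ± 0.45 (adjusted p = 3.578e-19). For bli-2, L3 males had 292 to 394 CPM and L2 males 1.14 to 2.91 CPM. For bli-6, named for the same blistered phenotype, L3 males had 148 to 244 CPM and L2 males 0.40 to 0.91 CPM. In L4 males bli-6 averaged 3060 CPM.

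Steep rises were also seen for col-38, col-138, col-49 and col-175, the col genes with the smallest p. Their mean levels were 368, 234.6, 150 and 91.0 CPM in L3 males, against 11.5, 2.07, 1.59 and 0.21 CPM in L2 males. In L4 males they averaged 3167, 5400, 3668 and 3235 CPM. For col-38 and col-138 a rise from L1 to L2 was already called (log2 fold changes 1.61 and 3.87). The body-shape collagen dpy-17 rose as well, with 11.4 to 14.2 CPM in L3 males and 0.62 to 1.19 CPM in L2 males. For dpy-17 this was no first onset, since L1 males averaged 5.42 CPM and its fall from L1 to L2 was called (log2 fold change −2.45). Of the 20 furrow, body shape and strut collagens tested, 5 rose (25%, against 11.3% of all genes) and 0 fell by edgeR. The DESeq2 Wald test called 1 fall. The median of the list was −0.03 and its sum was 16957 to 19333 CPM in L3 males and 23229 to 27185 CPM in L2 males.

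A few cuticle genes went the other way. For col-131, L3 males had 28.4, 26.3, 23.3 and 27.03 CPM and L2 males 147, 159, 121 and 99.9 CPM (log2 fold change −2.32 ± 0.23, adjusted p = 2.500e-10). For col-172, L3 males had 20.8 to 25.08 CPM and L2 males 93.9 to 142 CPM. The largest loss in level of any gene called was that of the cuticlin cut-2, at 1206, 1073, 830 and 865 CPM in L3 males and 2278, 2048, 4486 and 3481 CPM in L2 males. The L2 libraries of cut-2 were themselves uneven, with replicates 3 and 4 high, but the stages did not overlap. Of 20 cuticlins and other zona pellucida domain matrix proteins, 4 rose and 2 fell (20% and 10%, against 11.3% and 1.78% of all genes).

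Hedgehog-related genes encode secreted proteins that nematodes use in epidermis and matrix. Of 56 hedgehog-related and patched-related genes tested, 6 rose and 7 fell (10.7% and 12.5%, against 11.3% and 1.78% of all genes). The share of rises was thus near that of all genes. The median log2 fold change was −0.28. The ground-like gene grl-26 (chromosome IV, 321514 to 322814) had 54.4, 50.6, 56.7 and 49.2 CPM in L3 males and no count in L2 males, at least 384-fold higher. The genes grl-17 and grl-31 came on at lower levels, at 6.58 to 10.7 and 5.43 to 8.01 CPM in L3 males, against at most 0.60 and 0.23 CPM in L2 males. In contrast grl-7 averaged 254 CPM in L3 males and 538 CPM in L2 males, with the highest L3 library at 283 CPM and the lowest L2 library at 518 CPM. The warthog gene wrt-8 had 1.94 to 3.33 CPM in L3 males and 9.57 to 12.9 CPM in L2 males, and grl-20 had 0 to 0.97 CPM in L3 males and 1.37 to 1.79 CPM in L2 males. The call for grl-20 was lost without L3 male replicate 1 (adjusted p = 0.0748) and without L3 male replicate 3 (adjusted p = 0.0510), and, at −1.66 on the log2 scale, with thinned counts (adjusted p = 0.170). The ground-like gene grl-16 fell to 367 to 478 CPM in L3 males, against 781 to 935 CPM in L2 males, but its adjusted p of 0.0383 lay above 0.05 when any one of the 8 male libraries was left out (0.0536 to 0.0987). Of 24 molting genes 0 were called by edgeR and 0 by the DESeq2 Wald test, with 5 positive and 7 negative changes at an unadjusted p under 0.05.

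**Figure D3:**
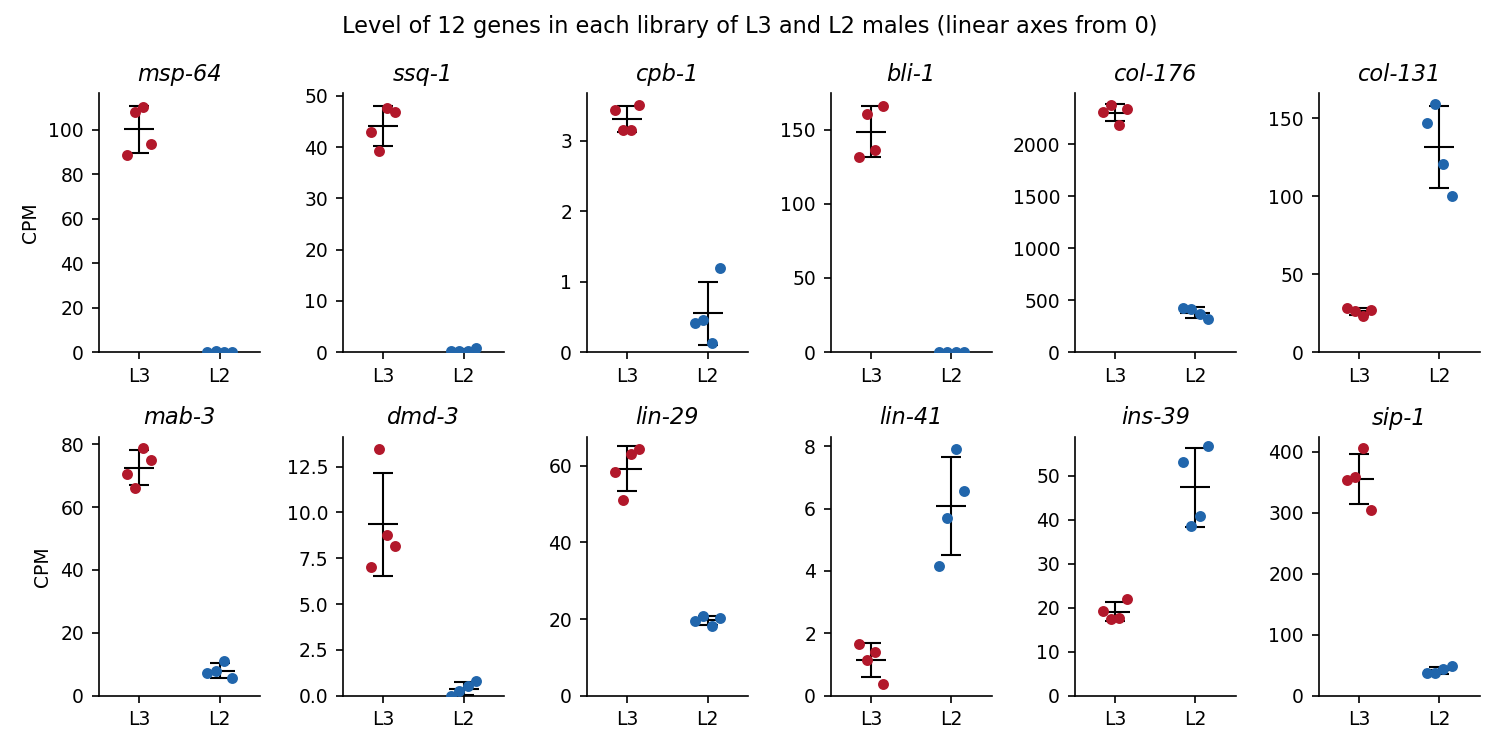
Level in CPM (y axis, linear from 0, own scale per panel) of 12 genes in each of 4 L3 male libraries (left in each panel) and 4 L2 male libraries (right); points are libraries, and the bar and whiskers are the mean and SD. In each of the 12 panels the 2 stages do not overlap, and col-131, lin-41 and ins-39 are the 3 genes that are lower in L3 males.

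Among timing genes lin-29 rose and lin-41 and hbl-1 fell. In hermaphrodites LIN-41, a TRIM-NHL RNA-binding protein, holds back lin-29 until the microRNA let-7 removes it, HBL-1 is a zinc finger factor of L2 fates, and LIN-29 is the zinc finger factor that drives the adult programme. Of 15 heterochronic genes tested, 1 rose and 2 fell (6.67% and 13.3%, against 11.3% and 1.78% of all genes). The gene lin-41 fell to 1.64, 1.14, 1.40 and 0.39 CPM in L3 males, against 4.16, 5.72, 7.92 and 6.55 CPM in L2 males (log2 fold change −2.37 ± 0.53, adjusted p = 0.0008851). For hbl-1 (X chromosome, 5822142 to 5827755) L3 males had 5.23, 6.87, 7.71 and 6.03 CPM and L2 males 11.7, 13.9, 14.8 and 21.8 CPM. Its log2 fold change was −1.27 ± 0.36 (adjusted p = 0.009501), but L2 male replicate 4 was the highest and without it the adjusted p was 0.0573.

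The gene lin-29 (chromosome II, 11917642 to 11935343) had 58.4, 51.2, 63.0 and 64.4 CPM in L3 males and 19.6, 20.8, 18.1 and 20.3 CPM in L2 males. This was a log2 fold change of 1.59 ± 0.28 (adjusted p = 2.856e-05), with nearly equal values within each stage. The timing genes kin-20 and nhr-23 had an adjusted p under 0.05 but changed less than 2-fold. The casein kinase kin-20, a partner of the period-like lin-42, had 18.9 to 27.2 CPM in L3 males and 34.5 to 40.9 CPM in L2 males. The nuclear receptor nhr-23, a driver of molting, had 37.5 to 51.8 CPM in L3 males and 23.2 to 30.2 CPM in L2 males.

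DM domain factors, relatives of Drosophila Doublesex, carry out male differentiation. Of 7 tested, 3 rose and 0 fell (42.9% higher, against 11.3% of all genes). The gene mab-3 (chromosome II, 9732137 to 9738035), which acts in male rays and keeps yolk genes off in the male gut, had 70.4, 66.1, 78.6 and 75.1 CPM in L3 males and 7.28, 8.002, 11.01 and 5.56 CPM in L2 males (log2 fold change 3.17 ± 0.27, adjusted p = 3.093e-12). The gene dmd-3 (chromosome V, 19650025 to 19655251), which with mab-3 reshapes the male tail tip, had 7.02, 13.4, 8.76 and 8.17 CPM in L3 males and 0, 0.23, 0.54 and 0.79 CPM in L2 males. For dmd-8 the L3 males had 1.56 to 3.502 CPM and the L2 males 0 to 0.40 CPM. This was no first onset, since L1 males averaged 2.08 CPM of dmd-8 and its fall from L1 to L2 was called (log2 fold change −3.11). Each of the 3 genes had its 4 L3 libraries above its 4 L2 libraries. All 3 also rose in hermaphrodites. The L3 hermaphrodite means of mab-3, dmd-3 and dmd-8 were 6.95, 5.42 and 3.58 CPM, and the L2 means 0.98, 0.04 and 0.38 CPM. The difference between the stage changes of the sexes was called for 0 of the 7 genes.

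Of 20 sex determination genes tested 1 rose and 2 fell (5% and 10%, against 11.3% and 1.78% of all genes). The gene tra-1, a GLI-type factor that directs hermaphrodite development, had 1.79, 0.86, 1.58 and 1.17 CPM in L3 males and 3.75, 3.66, 3.63 and 5.96 CPM in L2 males (log2 fold change −1.59 ± 0.39, adjusted p = 0.002335). The other gene of this list that fell was lin-41, which stands in both lists. The germ line gene fog-1, a CPEB-type factor that specifies sperm, had 13.1, 9.73, 9.98 and 13.03 CPM in L3 males and 5.41, 3.20, 5.51 and 6.55 CPM in L2 males. Without L2 male replicate 2 its log2 fold change was 0.98, under the threshold. Its partner fog-3 had 0.86 to 1.93 CPM in L3 males and 0.13 to 0.99 CPM in L2 males, which was not called (adjusted p = 0.155). For fem-3, L3 males had 2.72 to 7.17 CPM and L2 males 2.91 to 3.89 CPM, again not called (adjusted p = 0.0647).

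Of 6 Hox genes tested 0 were called by edgeR and 0 by the DESeq2 Wald test, with 1 positive and 1 negative change at an unadjusted p under 0.05. The posterior gene egl-5, which patterns the male tail, had 4.29 to 5.604 CPM in L3 males and 1.75 to 3.33 CPM in L2 males, without overlap (adjusted p = 0.0781). The mid-body gene lin-39 had 1.93 to 3.69 CPM in L3 males and 5.41 to 7.55 CPM in L2 males (adjusted p = 0.103), and it was called lower when the 8 male libraries were fitted alone (log2 fold change −1.29, adjusted p = 0.000774). For mab-5, needed for male rays, L3 males had 12.6 to 15.2 CPM and L2 males 8.23 to 16.2 CPM, and for nob-1 L3 males had 14.9 to 24.5 CPM and L2 males 22.6 to 28.9 CPM. Of 31 tail and copulatory genes tested, 4 rose and 1 fell (12.9% and 3.23%, against 11.3% and 1.78% of all genes). The median log2 fold change of this list was −0.03. Of the members that rose, mab-3, dmd-3 and lin-29 have been given. The other that rose was cwp-1, a gene of male-specific sensory neurons coexpressed with polycystins, with 2.99 to 4.08 CPM in L3 males and 0 to 0.23 CPM in L2 males.

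Of 49 pan-neuronal and synaptic genes, 0 rose and 1 fell (2.04%, against 1.78% of all genes). The 1 that fell was tag-97, with 9.14 to 10.2 CPM in L3 males and 18.7 to 23.6 CPM in L2 males. The median log2 fold change of the list was −0.38, against 0.09 for all genes, and 12 of its 49 members were above 0. Of 55 neuropeptide genes 4 rose and 0 fell (7.27%, against 11.3% of all genes). Among these nlp-26 and nlp-27, which also stand in the list of immune effectors as relatives of the epidermal antimicrobial peptides, had 161 to 242 and 461 to 649 CPM in L3 males, against 27.7 to 36 and 120 to 162 CPM in L2 males. The sensory channel gene trp-4, a mechanoreceptor of dopamine neurons, had 0 to 1.195 CPM in L3 males and 2.29 to 4.12 CPM in L2 males.

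The list of insulin-like peptides and insulin signalling held 1 rise and 4 falls among 26 genes tested. These were 3.85% and 15.4%, against 11.3% and 1.78% of all genes. The gene ins-39 (X chromosome, 1343758 to 1344421), an insulin-like peptide of sensory neurons, had 19.3, 17.5, 17.7 and 21.97 CPM in L3 males and 53.1, 38.6, 40.8 and 56.8 CPM in L2 males. Its log2 fold change was −1.31 ± 0.23 (adjusted p = 4.340e-05). Its mean was 71.3 CPM in L1 males, 7.88 CPM in L4 males and 5.69 CPM in young adult males. The kinase gene pdk-1, which acts downstream of the insulin receptor, had 8.67 to 11.4 CPM in L3 males and 18.4 to 25.42 CPM in L2 males. The TGF-beta ligand daf-7, outside the insulin family, had 6.81 to 10.9 CPM in L3 males and 16.5 to 19.4 CPM in L2 males. Without L3 male replicate 4 its log2 fold change came to −0.998, under the threshold in size. In the other direction, ins-37 had 7.17, 4.29, 6.13 and 6.03 CPM in L3 males and 0, 0, 0.40 and 0.79 CPM in L2 males (log2 fold change 4.13 ± 0.50, adjusted p = 1.552e-08).

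Of 42 intestine genes 8 rose and 0 fell (19.05%, against 11.3% of all genes), with a median log2 fold change of 0.37. One of the 8 was vit-2, which also stands in the list of eggshell, oocyte and yolk genes. The intestine markers elt-2, ges-1, cpr-6 and asp-1 summed to 5554 to 5804 CPM in L3 males and 5107 to 5650 CPM in L2 males. The cathepsin B-type protease cpr-4 had 973, 1048, 1228 and 964 CPM in L3 males and 391, 371, 463 and 505 CPM in L2 males. In L1 males cpr-4 averaged 1206 CPM, and its fall from L1 to L2 was called (log2 fold change −1.48). The delta-9 desaturase fat-5 had 40.8 to 57.5 CPM in L3 males and 12.1 to 20.4 CPM in L2 males. It was one of 5 rises among 21 desaturase and elongase genes (23.8%, against 11.3% of all genes). Of these 21 genes 0 fell by edgeR and 1 by the DESeq2 Wald test. The lipid-binding protein far-2 (chromosome III, 9081828 to 9082511) was among the 8 largest gains in level, with 2653, 3328, 3076 and 2950 CPM in L3 males and 774, 795, 825 and 705 CPM in L2 males (log2 fold change 1.95 ± 0.21, adjusted p = 2.155e-09).

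Of 32 fatty acid oxidation genes 4 rose and 0 fell (12.5%, near the 11.3% of all genes). The acyl-CoA dehydrogenase acdh-1, which acts in an alternative route of propionate breakdown, had 5.604 to 9.73 CPM in L3 males and 0.27 to 0.60 CPM in L2 males. For hacd-1, a hydroxyacyl-CoA dehydrogenase, L3 males had 58.3 to 87.03 CPM and L2 males 11.9 to 19.5 CPM. The hydratase ech-6 had 525, 456, 529 and 632 CPM in L3 males and 179, 152, 165 and 133 CPM in L2 males. In each case every L3 library was above every L2 library.

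Stress genes held 1 rise. Of 40 heat shock and chaperone genes tested 1 rose and 0 fell (2.5%, against 11.3% of all genes). That was sip-1 (chromosome III, 10506106 to 10506801), a small heat shock protein, with 353, 359, 406 and 305 CPM in L3 males and 37.9, 36.8, 43.6 and 48.9 CPM in L2 males (log2 fold change 3.09 ± 0.25, adjusted p = 9.117e-13). Of 84 C-type lectins 15 rose and 2 fell (17.9% and 2.38%, against 11.3% and 1.78% of all genes). The lectin clec-123 had 7.15 to 10.3 CPM in L3 males and 0 to 0.23 CPM in L2 males, whereas clec-230 fell to 0.57 to 1.23 CPM in L3 males, against 4.03 to 8.92 CPM in L2 males. The glutathione transferase gst-20 had 192 to 258 CPM in L3 males and 75.5 to 95.1 CPM in L2 males, one of 6 rises among 53 enzymes of detoxification with 0 falls (11.3%, as over all genes).

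Housekeeping lists held few calls. Of 80 cytosolic ribosomal protein genes 2 rose and 0 fell (2.5%, against 11.3% of all genes), and the list's median log2 fold change was 0.16. The one at a high level was rpl-11.1, with 1086, 1078, 1125 and 1167 CPM in L3 males and 482, 419, 473 and 435 CPM in L2 males. The nucleolar methyltransferase fibrillarin, fib-1, fell to 485, 437, 420 and 420 CPM in L3 males, against 1058, 979, 948 and 858 CPM in L2 males (log2 fold change −1.13 ± 0.22, adjusted p = 0.0001238). The nuclear import receptor imb-3 had 215 to 251 CPM in L3 males and 465 to 496 CPM in L2 males. Of 31 proteasome genes and 38 respiratory chain genes 0 were called by edgeR and 0 by the DESeq2 Wald test, with 1 and 5 genes at an unadjusted p under 0.05. For the other lists given here with 0 rises or 0 falls, the Wald test also called 0 unless stated. Among 63 cell cycle genes 2 rose and 0 fell (3.17%, against 11.3% of all genes). One of them, cki-1, the inhibitor that holds cells out of division, had 85.6, 99.6, 98.6 and 91.2 CPM in L3 males and 49.9, 53.7, 44.98 and 35.2 CPM in L2 males. Its log2 fold change of 1.03 was 0.97 with DESeq2 size factors and 0.88 with no filter on low counts, both under the threshold, and the Wald test called 0 rises in the list. Of 29 pharyngeal genes 0 rose and 4 fell (13.8%, against 1.78% of all genes). Among the 4 was abu-13, a matrix protein of the pharyngeal lining, with 63.8 to 86.3 CPM in L3 males and 154 to 165 CPM in L2 males. The gene pqn-13 had 3.59 to 7.78 CPM in L3 males and 15.3 to 32.4 CPM in L2 males, and phat-5 had 4.47 to 7.71 CPM in L3 males and 12.1 to 24.8 CPM in L2 males.

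**Figure D4:**
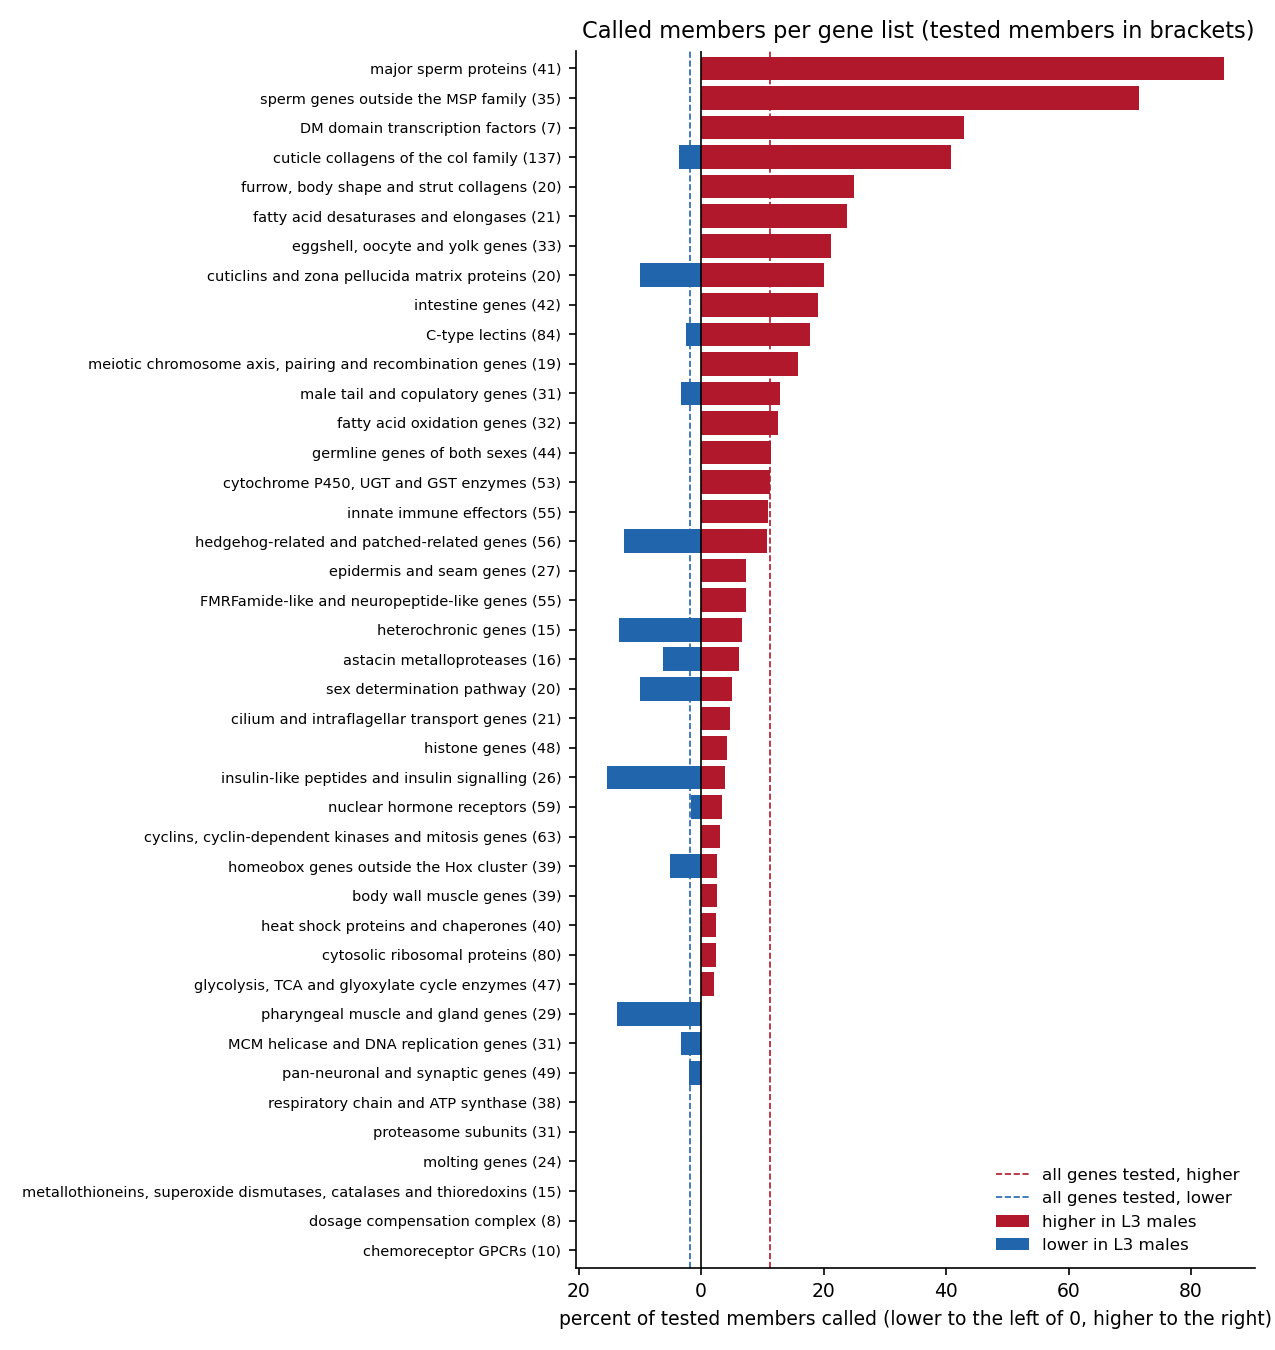
Percent of the tested members of each gene list with at least 7 tested members that were called higher (right of 0) or lower (left of 0) in L3 males, with the number tested in brackets; dashed lines mark all genes tested (11.3% higher, 1.78% lower). The 2 sperm lists reach 85.4% and 71.4% higher and the col genes 40.9%.

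Much of this change was shared with hermaphrodites. The hermaphrodite step from L2 to L3, measured in N2 libraries that are all different from the male ones, had 652 rises (8.04%) and 189 falls (2.33%). Of these, 502 rises were also rises in males, 54.7% of the male and 77.0% of the hermaphrodite list. Falls shared 67 genes, 46.5% of the male and 35.4% of the hermaphrodite list. No gene rose in one sex and fell in the other. Set against L2 hermaphrodites, 40 of the 8110 genes were called higher and 17 lower in L2 males. Against L3 hermaphrodites, 623 were called higher and 76 lower in L3 males. Being called in males alone did not show a difference between the stage changes of the sexes. Of the 415 such rises 14 passed the test of the difference itself, and of the 77 such falls 3 did. A gene called between the sexes at L3 could fail it: msp-64 was higher in L3 males than in L3 hermaphrodites (log2 fold change 2.86) but did not pass the test of the difference.

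That test called 45 genes: 36 (0.444%) with a more positive and 9 (0.111%) with a more negative change in males. Its counts were sensitive to the fit, with 120 and 35 genes when the 16 libraries of the contrast were fitted alone. Sperm genes of the list that were called differed in size and not in direction. For ssq-1, the male libraries had 42.9, 39.2, 47.6 and 46.9 CPM at L3 and 0.21, 0.23, 0.13 and 0.79 CPM at L2, while the hermaphrodites had 8.53 to 14.8 CPM at L3 and 0.53 to 1.24 CPM at L2. The male change was larger by 3.39 ± 0.52 on the log2 scale (adjusted p = 0.0005319). For gsp-4 the difference was 3.13 (adjusted p = 0.0401), and it missed the threshold when any one of 9 of the 16 libraries was left out.

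Y39B6A.9 (chromosome V, 19136506 to 19139094) had 255, 198, 236 and 209 CPM in L3 males and 0.42 to 0.60 CPM in L2 males, against 7.36 to 11.9 and 0.18 to 0.71 CPM in hermaphrodites of the same stages. The difference of 4.40 ± 0.72 had an adjusted p of 0.00069. K01D12.7 differed likewise, by 2.95 ± 0.50, with 25.5 to 30.6 CPM in L3 males and 0.42 to 0.99 CPM in L2 males. In hermaphrodites it had 3.52 to 6.97 CPM at L3 and 1.06 to 1.23 CPM at L2.

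The next 4 genes rose in males and were not called in hermaphrodites. The matrix protein gene dex-1 (chromosome III, 5526104 to 5535507), known for its part in seam cells and sensory dendrites, had 27.5, 30.3, 28.5 and 29.9 CPM in L3 males and 7.07, 8.46, 7.92 and 7.35 CPM in L2 males. In hermaphrodites it had 4.27 to 6.97 CPM at L3 and 5.85 to 7.90 CPM at L2, and the difference was 2.35 ± 0.36 (adjusted p = 0.0005319). The cuticlin-like cutl-24 (chromosome IV, 165077 to 169980) had 22.4 to 24.2 CPM in L3 males and 3.18 to 7.92 CPM in L2 males, while hermaphrodites had 4.17 to 6.31 CPM at L3 and 5.62 to 9.12 CPM at L2. The difference was 2.54 ± 0.40. The zinc finger gene ztf-11, a factor of neurogenesis, had 18.8, 25.5, 18.4 and 23.3 CPM in L3 males and 7.07, 5.72, 6.45 and 5.36 CPM in L2 males, against 1.11 to 3.43 and 3.27 to 5.65 CPM in hermaphrodites at L3 and L2. The GATA factor elt-6, which maintains seam cells, had 23.3 to 26.03 CPM in L3 males and 7.92 to 12.69 CPM in L2 males, while hermaphrodites had 4.66 to 6.77 and 7.76 to 8.66 CPM. In L1 males elt-6 averaged 31.3 CPM, and its fall from L1 to L2 was called (log2 fold change −1.66). The differences for ztf-11 and elt-6 were 2.78 and 1.87.

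The aspartic protease asp-5 had 64.9 to 97.6 CPM in L3 males and 12.8 to 26.1 CPM in L2 males, but 770 to 1028 and 828 to 995 CPM in hermaphrodites at L3 and L2, with every hermaphrodite library above every male library. Its difference was 1.86 (adjusted p = 0.0101). For acdh-1 the difference of 2.35 had an adjusted p of 0.0320, which rose above 0.05 in 12 of the 16 fits that leave out 1 library (up to 0.158). It also rose in hermaphrodites, from a mean of 2.77 CPM at L2 to 9.97 CPM at L3, against 0.43 and 8.08 CPM in males. At L2 acdh-1 was called lower in males than in hermaphrodites (log2 fold change −2.66), and at L3 it was not called between the sexes (−0.31).

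In the negative direction, the yolk gene vit-1 had 2.101 to 3.31 CPM in L3 males and 0.83 to 1.79 CPM in L2 males, while hermaphrodites had 8.58 to 13.1 CPM at L3 and 0.18 to 0.82 CPM at L2. The difference was −3.16 ± 0.56 (adjusted p = 0.001598). The rise of vit-1 in males on its own was not secure, with an adjusted p of 0.0220 that lay above 0.05 without L2 male replicate 1, 2 or 3 or L3 male replicate 2 or 4 (up to 0.0802). The collagen col-176 rose in both sexes but less steeply in males, with a difference of −2.14 ± 0.42, as hermaphrodites had 948 to 1262 CPM at L3 and 38.2 to 53.5 CPM at L2. For col-140 the L3 males had 3.74 to 4.90 CPM and the L2 males 1.83 to 5.36 CPM, with no call in males, against 6.31 to 17.4 and 1.24 to 2.28 CPM in hermaphrodites. Its difference of −2.44 missed the threshold without L2 male replicate 4 (adjusted p = 0.0764).

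The eggshell gene cbd-1 had 5.72 to 8.56 CPM in L3 males and 6.24 to 13.4 CPM in L2 males, while hermaphrodites had 12.3 to 20.2 CPM at L3 and 6.19 to 8.03 CPM at L2. The cbd-1 difference of −1.67 was not called with counts thinned to the smallest library (−1.46, adjusted p = 0.0849). F08A8.4 fell in males, with 5.64 to 9.11 CPM at L3 and 23.1 to 27.4 CPM at L2, and had 40.6 to 59.1 and 32.5 to 43.8 CPM in hermaphrodites. The insulin-like ins-39 fell in males by the values given above and had 0.93 to 3.68 CPM at L3 and 0.95 to 1.42 CPM at L2 in hermaphrodites, a difference of −2.17 ± 0.40 (adjusted p = 0.002879). Every male library of either stage was thus above every hermaphrodite library of these stages for ins-39. The fall of col-131 was steeper in males by −1.36 (adjusted p = 0.0260), with 34.1 to 44.6 CPM in L3 and 55.9 to 93.4 CPM in L2 hermaphrodites, a call that was lost in 9 of the 16 fits without 1 library.

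**Figure D5:**
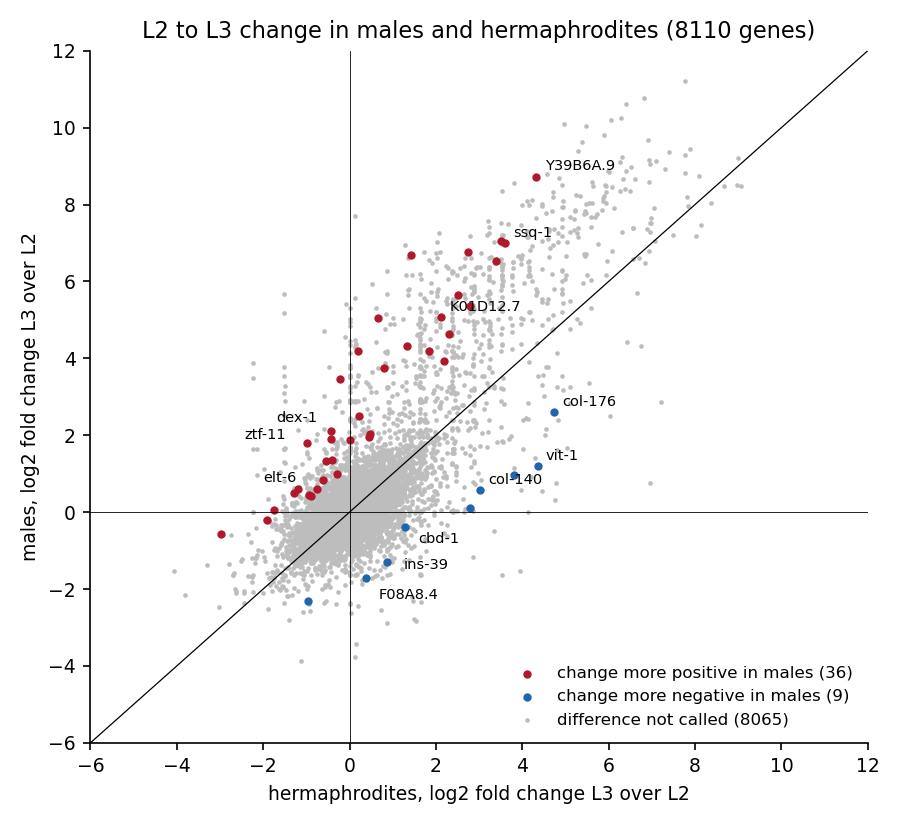
Fitted log2 fold change of L3 over L2 in males (y axis) and in hermaphrodites (x axis) for 8110 genes, with genes coloured where the difference between the 2 changes was called; the diagonal marks equal changes. Most points with a rise in males lie in the upper right, and 36 called genes lie above the diagonal and 9 below it.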

How the data were processed

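RNA of whole worms was made into 3′ libraries by a bulk form of MARS-seq. According to the submitters' processing notes and the methods, the authors trimmed reads with cutadapt, mapped them to WBcel235 with STAR 2.4.2a and counted UMIs with HTSeq. The deposited counts are whole UMI counts per gene, not normalised, and were used as they stand. The same table holds normalised, batch-corrected and variance-stabilised values and the authors' own fold changes and p-values for pairs of groups, which were not used. Neither labels nor methods name the batch behind that correction, so no within-batch values were computed, and the part of a batch in the differences between stages or sexes was not tested.

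The members, gene lists and tests were chosen with earlier results of these data known. Counts of all 40 libraries were scaled by TMM and fitted with 1 mean per group in edgeR 4.0.16 (R 4.3.3) after a filter on low counts (at least 10 in a group's worth of libraries, 15 in total), with the quasi-likelihood test and Benjamini-Hochberg adjustment over 8110 genes. A call needed an adjusted p of at most 0.05, a log2 fold change of at least 1 in size and a mean normalised count of at least 5. The difference between the sexes was a contrast of the 2 stage changes. DESeq2 1.42.0 was an alternative. The labels name 4 biological repeats per group. On simulated counts for L3 against L2 males, 80% of genes changed 3-fold and 97% of those changed 8-fold were recovered. For the difference between the sexes these were 56% and 92%. Of the genes left unchanged, 11 and 5 were called. The changed genes were drawn only from those with a mean normalised count of at least 10 in L2 males. Recovery of rises from near 0, such as the 447 with 0 to 3 L2 counts, was thus not tested. Folds against 0 counts were set against 3 counts over the group, and ratios over 1 to 3 counts have 95% counting intervals, which cover counting error only. Positions come from the Ensembl annotation of WBcel235, matched for 11456 of 11933 genes.

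Genes were named by rule: the 15 largest rises and 15 largest falls among calls without overlap, the 8 largest gains and losses in CPM, up to 4 members of each list, members of the timing, sex determination, DM and Hox lists, and 6 genes per direction for the difference between the sexes. Not all of them are named in the text. The sex differences of gsp-4, acdh-1, asp-5, elt-6 and col-131, named under other parts of the rule, were picked after their values were seen.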

Additional observations from a re-analysis of the deposited data

Results flagged for a closer look

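In 192 groups of 4, a value was sought that stood apart from the other 3 libraries of its stage by the Dixon ratio. Groups with no count in any library are among the 192 but cannot hold such a value. In the others chance gives about 1 in 20. Such values were met 10 times. In L3 males these were gsp-4 in replicate 3 at 26.3 CPM (others 21.5 to 22.3), C04G2.3 in replicate 3 at 44.7 CPM (36.3 to 37.3), oma-1 in replicate 3 at 5.604 CPM (4.01 to 4.28), col-175 in replicate 1 at 69.9 CPM (96.7 to 99.2) and asp-5 in replicate 2 at 97.6 CPM (64.9 to 68.9). In L2 males they were ssq-1 in replicate 4 at 0.79 CPM (0.13 to 0.23), bli-6 in replicate 2 at 0.91 CPM (0.40 to 0.42), tra-1 in replicate 4 at 5.96 CPM (3.63 to 3.75), K01D12.7 in replicate 1 at 0.42 CPM (0.91 to 0.99) and col-140 in replicate 4 at 5.36 CPM (1.83 to 2.28). Apart from col-140, no such library closed the gap between the stages.

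The change from L2 to L3 differed between males and hermaphrodites, by the test of the difference, for 17 genes named in the text. On the log2 scale the male change exceeded the hermaphrodite change by 4.40 for Y39B6A.9, 3.39 for ssq-1, 3.13 for gsp-4, 2.95 for K01D12.7, 2.78 for ztf-11, 2.54 for cutl-24, 2.35 for dex-1, 2.35 for acdh-1, 1.87 for elt-6 and 1.86 for asp-5. The difference was −3.16 for vit-1, −2.44 for col-140, −2.17 for ins-39, −2.14 for col-176, −2.11 for F08A8.4, −1.67 for cbd-1 and −1.36 for col-131. Whether sex or strain lies behind these values cannot be told apart.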

How the results depend on the processing

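Of the 917 rises, 546 were called with the 8 male libraries fitted alone and 790 with no filter on low counts. The counts of rises and falls stayed within 1.5 times 917 and 144 under DESeq2 size factors (863 and 185), the DESeq2 Wald test (868 and 196), thinned counts (830 rises), a mean count taken over the 8 libraries (737 and 146) and a replicate block across all libraries (901 rises). They moved further with the 8 male libraries alone (586 and 237) and with a replicate block within these libraries (586 and 247), where 5569 genes could be tested. Falls were 228 with no filter and 12 by glmTreat against a 2-fold change, which called 618 rises. Leaving out 1 male library gave 824 to 865 rises, and falls within 1.5 times 144. The difference between the sexes had 36 and 9 calls, and 81 and 17 by the Wald test, where 2360 adjusted p were not given, 120 and 35 with the 16 libraries alone, 129 and 68 with a replicate block within them, and 9 and 1 by glmTreat. Leaving out 1 library gave 25 to 35 and 6 to 12.

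Same-numbered L3 and L2 male libraries had correlations of their deviations of 0.110, 0.060, 0.006 and 0.130, and those of hermaphrodites 0.510, 0.012, 0.152 and 0.270. In neither sex was every one of them over 0.1 or did every library correlate best with its own number, and the labels name no pairing, so the replicate numbers were not taken as pairs. Of 96 genes named in the text, 60 kept their direction and call for the male stage change in every fit run, and none changed direction. A count of 0 over the 4 L2 male libraries allows a level of up to 0.138 CPM, which limits the folds of the 256 rises with no L2 count.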
